A study of Mus musculus with 4 samples.

Results

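The TNF receptor superfamily genes carried by T cells were followed in 2 genotypes, in cultures meant to yield regulatory T cells. The 10 genes were taken by symbol, of 22119 symbols found in both deposited tables: Tnfrsf18, Tnfrsf9, Tnfrsf8, Tnfrsf1a, Tnfrsf1b, Tnfrsf25, Tnfrsf14, Tnfrsf21, Cd27 and Fas. All 10 were in both tables, and 9 passed the filter of a mean of at least 1 FPKM (fragments scaled to transcript length and to library depth). The cells were labelled MSC KO, with 2 libraries, and WT, with 2 libraries, all from C57BL/6 mice. MSC stands for musculin, a basic helix-loop-helix protein known as a repressor of transcription that binds E-boxes; the sources used here do not say which bases of the allele were removed or whether animals were pooled. Naive T cells of either genotype were sorted and kept for 3 days in wells coated with anti-CD3 and anti-CD28 at 1 µg/ml, with TGF-beta at 2 ng/ml, a condition used to make induced regulatory T (iTreg) cells, and whole-culture RNA was sequenced.

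Receptors of this family are surface proteins that pass signals from trimeric ligands to the cytoplasm. A first branch (GITR, 4-1BB, CD30, CD27, HVEM and TNFR2) binds TRAF adaptors and is known for costimulation, NF-kappaB activation and survival of activated T cells, with GITR, 4-1BB and TNFR2 abundant on regulatory T cells. The other branch (TNFR1, FAS, DR3 and DR6) carries a death domain that recruits TRADD or FADD, through which a receptor can drive either NF-kappaB or caspase-mediated death.

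The libraries labelled MSC KO held an estimated 28000000 and 32800000 fragments, and those labelled WT 25500000 and 35000000. Msc itself was at 0.331 and 0.939 FPKM in the libraries labelled MSC KO 1 and 2, against 0.0243 and 0.0178 FPKM in those labelled WT 1 and 2. These values were below the filter, on about 16 and 54 fragments in MSC KO 1 and 2 and 1 in each WT library. That direction goes against the labels. The removed bases are not given, so the labels could not be checked on Msc, and every direction below is that of the labelled groups. Foxp3, which defines regulatory T cells, was at 2.97 and 7.05 FPKM in the libraries labelled MSC KO and at 62.8 and 66.0 FPKM in those labelled WT. The 4 Treg markers, Foxp3 included, summed to 586 and 508 FPKM in the libraries labelled MSC KO, compared with 486 and 512 FPKM in those labelled WT, most of it Il2ra and Ctla4. The sum hides that the markers differed: Foxp3 and Ikzf2 were below both WT-labelled libraries, Ctla4 was above both and Il2ra overlapped. Ikzf2 was at 2.06 and 6.66 FPKM in the KO-labelled libraries, compared with 9.38 and 9.91 FPKM in the WT-labelled ones. The T cell identity was checked on Cd3d, Cd3e, Cd3g, Cd4 and Cd28, 5 of 6 listed T cell markers, whose summed level was 970 and 909 FPKM in the libraries labelled MSC KO, compared with 879 and 901 FPKM in those labelled WT. Of other cell types, the 5 B cell markers summed to 5.04 to 6.02 FPKM in the libraries labelled MSC KO and to 6.95 to 7.25 FPKM in those labelled WT, with Ms4a1 at no more than 0.130 FPKM. The 6 myeloid markers summed to 4.14 to 4.34 FPKM in the libraries labelled MSC KO, compared with 1.68 to 1.92 FPKM in those labelled WT, with Cd68 the highest of them in every library and Csf1r at 0 in both libraries labelled MSC KO, and the part of such cells in the results was not tested. The 3 NK markers summed to 2.78 and 1.73 FPKM in the libraries labelled MSC KO and to 4.52 and 5.56 FPKM in those labelled WT. Nearly all of that was Klrd1, at 2.73 and 1.66 FPKM in the KO-labelled libraries and below both WT-labelled ones. Klrb1c was at 0.0515 and 0.0688 FPKM in the KO-labelled libraries and 0 in the WT-labelled ones, and Ncr1 was at 0 in all 4. The 2 CD8 T cell markers summed to 9.13 and 19.8 FPKM in the KO-labelled libraries, compared with 11.3 and 11.7 FPKM in the WT-labelled ones. Most of that was Cd8b1, at 8.56 and 19.1 FPKM in MSC KO 1 and 2 and 9.75 FPKM in each WT-labelled library, so it overlapped. Cd8a was below both WT-labelled libraries, at 0.571 and 0.658 FPKM in the KO-labelled libraries, compared with 1.58 and 1.90 FPKM in the WT-labelled ones. In a bulk library, fewer cells of a type and less RNA per cell cannot be told apart. The libraries labelled MSC KO differed from each other by 18.8 times the counting noise in the median squared difference over 426 genes, close to the 19.7 and 22.9 times between genotypes within a table, while those labelled WT differed by 2.7 times.

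No receptor gene was called at an adjusted p under 0.05 by limma, against 1 of 10587 genes tested, 0.00945% of them, the small RNA gene Rnu73b. At an unadjusted p under 0.05, the limma fit held 3 of the 9 members tested (Tnfrsf18, Tnfrsf9 and Tnfrsf25), where the same threshold held 20.4% of all genes. Both libraries labelled MSC KO were above both labelled WT in 4 of the 9 (Tnfrsf18, Tnfrsf9, Tnfrsf8 and Tnfrsf25), against 26.6% of all genes, and below both in 3 of the 9 (Tnfrsf1a, Tnfrsf1b and Fas), against 32.5%. Tnfrsf14 and Cd27 overlapped between the groups. Tnfrsf8 passed the filter only through MSC KO 1, at 11.9 FPKM, and was under 1 FPKM in every other library. Its place among the 9 thus came from a library in which it was high. Tnfrsf21, also above both libraries labelled WT, was below the filter and is not in these counts. On the log2(FPKM + 1) scale, where the added 1 shrinks low values, no member was at least 2-fold apart in the same direction in both tables, against 1.32% of genes higher and 0.812% lower on that scale. By the plain ratio of FPKM values, Tnfrsf8 was over 2-fold higher in both. The fitted differences, labelled MSC KO minus labelled WT on the log2(FPKM + 1) scale, ran from -0.25 to 1.75 with a median of 0.05, beside -0.02 over all genes tested.

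Over the 4 libraries, levels of the members ran from 0.333 FPKM for Tnfrsf8 to 723 FPKM for Tnfrsf18. In the libraries labelled WT, the order by FPKM, a scale per transcript length, was Tnfrsf18, Tnfrsf9, Tnfrsf1b, Cd27, Fas, Tnfrsf25, Tnfrsf1a, Tnfrsf14, Tnfrsf8 and Tnfrsf21. Only the neighbours Tnfrsf8 and Tnfrsf21 overlapped in their 2 libraries labelled WT. Tnfrsf18 and Tnfrsf9 alone held 89.5% and 90.8% of the summed level of the 10 members in the libraries labelled MSC KO, against 87.7% and 87.2% in those labelled WT. The sum itself was 1314 and 1320 FPKM in the libraries labelled MSC KO, compared with 959 and 973 FPKM in those labelled WT.

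**Figure D1:**
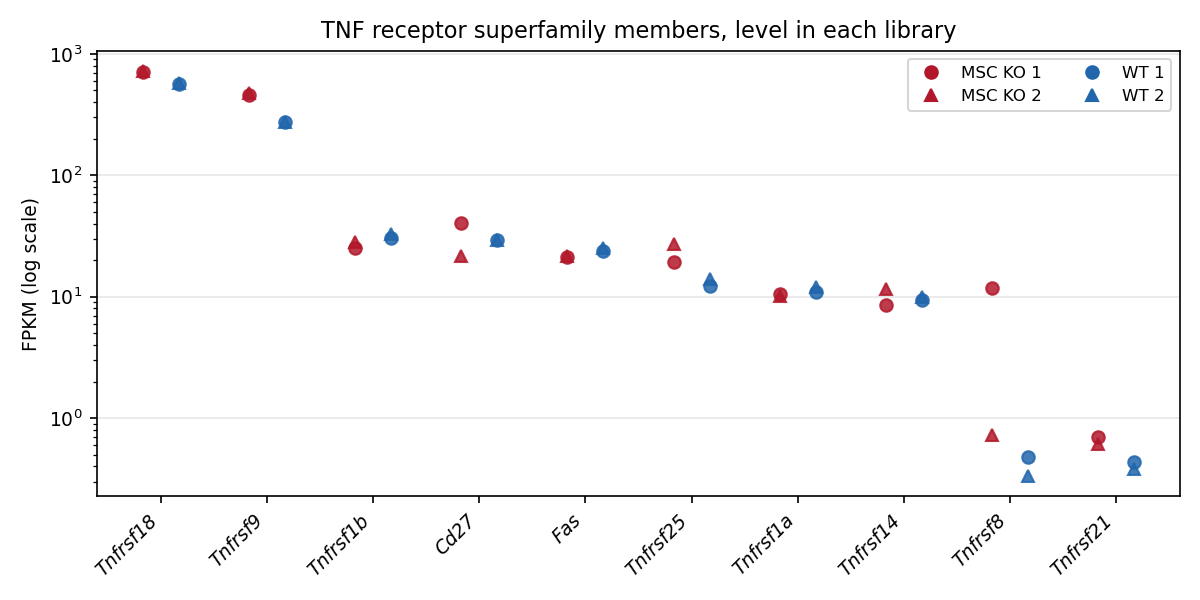
Level of each receptor gene in FPKM on a log axis, 1 point per library, with the libraries labelled MSC KO left of those labelled WT and genes ordered by level. Tnfrsf18 and Tnfrsf9 sit far above the rest, and the 2 libraries labelled MSC KO lie far apart for Tnfrsf8 (11.9 and 0.728 FPKM) and for Cd27 (40.5 and 21.5 FPKM).

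The 250 bases before the annotated start are shown for the 4 tested members that lay above the libraries labelled WT in both tables, since musculin binds E-boxes and NF-kappaB is the pathway downstream of these receptors. They come from RefSeq on GRCm38.p6, while the positions given further on are mm9. Tnfrsf18 is at chr4:156026072-156026321 on the plus strand, Tnfrsf9 (the downstream of its 2 starts) at chr4:150927749-150927998 on the plus strand, Tnfrsf8 at chr4:145315165-145315414 on the minus strand and Tnfrsf25 (the upstream of its 2 starts) at chr4:152115684-152115933 on the plus strand. Capitals mark matches, on either strand, to an E-box (CANNTG) or to a kappaB-like motif (GGGANNNNCC).
Tnfrsf18: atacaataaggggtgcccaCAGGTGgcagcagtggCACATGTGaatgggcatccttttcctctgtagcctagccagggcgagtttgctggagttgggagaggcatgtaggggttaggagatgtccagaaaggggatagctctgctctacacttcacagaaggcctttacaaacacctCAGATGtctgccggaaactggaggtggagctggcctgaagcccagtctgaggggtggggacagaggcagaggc
Tnfrsf9: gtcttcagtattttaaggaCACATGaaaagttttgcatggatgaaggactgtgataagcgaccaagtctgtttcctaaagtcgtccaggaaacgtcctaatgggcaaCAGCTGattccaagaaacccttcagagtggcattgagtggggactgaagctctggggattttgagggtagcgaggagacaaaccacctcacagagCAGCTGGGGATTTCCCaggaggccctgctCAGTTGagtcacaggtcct
Tnfrsf8: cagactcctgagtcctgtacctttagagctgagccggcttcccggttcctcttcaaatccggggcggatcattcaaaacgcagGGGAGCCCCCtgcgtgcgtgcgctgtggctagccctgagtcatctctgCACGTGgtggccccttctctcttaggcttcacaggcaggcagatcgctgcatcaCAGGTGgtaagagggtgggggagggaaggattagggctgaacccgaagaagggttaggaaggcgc
Tnfrsf25: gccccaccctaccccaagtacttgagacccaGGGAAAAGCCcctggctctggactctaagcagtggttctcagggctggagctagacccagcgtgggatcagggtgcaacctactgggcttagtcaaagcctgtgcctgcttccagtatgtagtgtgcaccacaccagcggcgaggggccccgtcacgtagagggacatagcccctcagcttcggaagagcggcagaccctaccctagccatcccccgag

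Tnfrsf18 held 4 E-boxes, at -231, -215, -213 and -73 (the start is 1 and the base before it -1), the middle pair overlapping each other. The downstream start of Tnfrsf9 held 4 E-boxes, 2 of them CAGCTG at -143 and -48. It also held a kappaB-like match at -42 that directly adjoins the second CAGCTG. The upstream start of Tnfrsf9, whose bases are not shown, held 1 E-box at 12 and no kappaB-like match. Tnfrsf8 held E-boxes at -119 and -65 and a kappaB-like match at -167. The upstream start of Tnfrsf25 held a kappaB-like match at -219 with no E-box, and its downstream start held neither motif. For both genes with 2 starts, the start shown is thus the one with more matches. Over the 12 windows of 300 bases (250 before the start and 50 from it) that RefSeq gives for the 10 members, 9 held CANNTG, 2 held CAGCTG and 4 held GGGANNNNCC, each searched on both strands. The shares of all 32851 mouse windows with a match were 72.3%, 16.3% and 20.7% in that order, so an E-box is found in most windows. CAGCTG is itself a form of CANNTG and was counted in both. In 10 of the 12 windows the bases just after the start lay in a GENCODE M21 transcript of the gene. In those of Cd27 and Fas they did not, and both of these windows are among the 9 with an E-box. A match describes letters and is no evidence of binding.

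**Figure D2:**
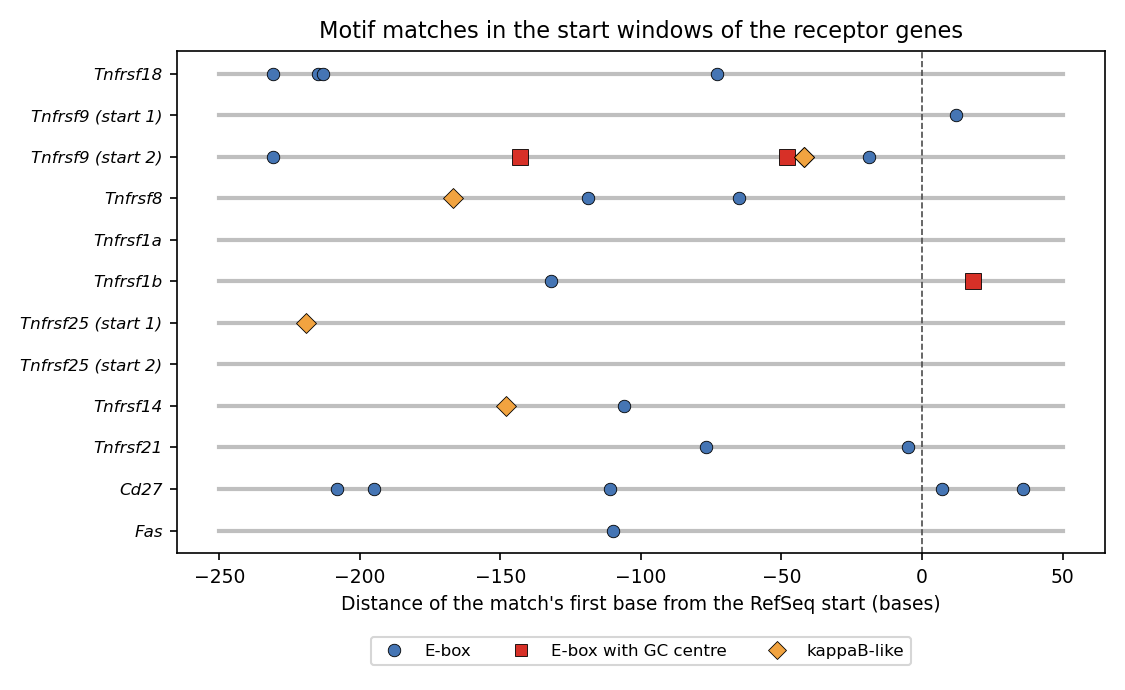
Position of motif matches in the 12 windows of the 10 receptor genes, with the distance of the first base of each match from the RefSeq start in bases on the x axis and 1 line per start. Circles are E-boxes, squares the CAGCTG form and diamonds kappaB-like matches; the downstream start of Tnfrsf9 carries 2 CAGCTG squares and a diamond, while Tnfrsf1a and the downstream start of Tnfrsf25 carry none.

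Among the costimulatory receptors, Tnfrsf9 had the lowest unadjusted p of the members tested. It encodes 4-1BB (CD137), an activation-induced receptor on T cells (chromosome 4, 150294263 to 150320215, mm9). Tnfrsf9 was at 463 and 475 FPKM in the libraries labelled MSC KO, against 274 and 277 FPKM in those labelled WT. The groups were well separated and the spread within each was small. Tnfrsf9 was 1.69-fold higher in the first table (95% exact Clopper-Pearson interval 1.65 to 1.72, counting error only) and 1.72-fold higher in the second (1.69 to 1.75). The fitted difference was 0.77 ± 0.08 (SE, n = 2 libraries a group), with an unadjusted p of 0.00162 and an adjusted p of 0.121 by limma. With any 1 library left out, in fits without the table block, the difference of Tnfrsf9 ran from 0.747 to 0.783. Such a fit leaves 1 library in a group, so its spread comes from the other group alone. The other values given without a library come from the same kind of fit. In the authors' deposited table the q-values of Tnfrsf9 were 0.501 and 0.390. Camta1 overlaps it on the other strand, with 6.19 to 7.53 FPKM in the 4 libraries, and the sources used here do not say whether counting used strand.

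Tnfrsf18 encodes GITR, a receptor carried at a high level by regulatory T cells (chromosome 4, 155400450 to 155403000). It was the most abundant member, at 713 and 723 FPKM in the libraries labelled MSC KO and 567 and 572 FPKM in those labelled WT, and ranked 173 of all symbols by its level in WT. The groups did not overlap. The ratio was 1.26 in both tables (1.23 to 1.28 and 1.24 to 1.29). The difference was 0.33 ± 0.08 with a limma adjusted p of 0.184, and ran from 0.323 to 0.344 with any 1 library left out. A gene annotated as antisense, Gm16008, overlaps Tnfrsf18, so its reads may not be separable from those of Tnfrsf18.

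Tnfrsf8 encodes CD30, a marker of activated lymphocytes (chromosome 4, 144857036 to 144905050). Its level was 11.9 and 0.728 FPKM in the libraries labelled MSC KO, against 0.481 and 0.333 FPKM in those labelled WT. The library labelled MSC KO 1 stood far above the other 3, on about 1138 fragments, against 81 in MSC KO 2 and 42 and 40 in WT 1 and WT 2. The ratio was 24.8 in the first table (18.1 to 34.4) and 2.19 in the second (1.47 to 3.25). The authors' deposited table called Tnfrsf8 in the first table (q-value 0.0118) and not in the second (0.999), beside calls for 0.656% of the 11893 genes the authors tested in the first and 0.549% of 12194 in the second. The fitted difference was 1.75 ± 0.77 with a limma adjusted p of 0.317. Without MSC KO 2 the difference was 3.20, and without MSC KO 1 it was 0.30.

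Tnfrsf1b encodes TNFR2, the TNF receptor of regulatory T cells (chromosome 4, 144802270 to 144836773). It lay lower in the libraries labelled MSC KO, at 25.2 and 28.1 FPKM, against 30.7 and 33.0 FPKM in those labelled WT. The ratios were 0.820 (0.778 to 0.864) and 0.853 (0.816 to 0.892), and the difference was -0.25 ± 0.09 with a limma adjusted p of 0.264.

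Cd27 encodes the receptor for CD70, found on naive and memory T cells (chromosome 6, 125173626 to 125189952). Cd27 was at 40.5 and 21.5 FPKM in the libraries labelled MSC KO, against 29.5 and 29.4 FPKM in those labelled WT. The 2 libraries labelled MSC KO thus lay on opposite sides of the WT values, with ratios of 1.37 (1.27 to 1.48) and 0.732 (0.677 to 0.791). The limma difference was 0.01 ± 0.26 (adjusted p = 0.994), but was -0.44 without MSC KO 1 and 0.45 without MSC KO 2. Vamp1 lies on the other strand of Cd27 with 1.13 to 1.79 FPKM.

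Tnfrsf14 encodes HVEM, which binds LIGHT, lymphotoxin alpha, BTLA and CD160 (chromosome 4, 154296318 to 154302186). It was at 8.58 and 11.7 FPKM in the libraries labelled MSC KO and at 9.31 and 9.95 FPKM in those labelled WT, so the groups overlapped. The difference was 0.05 ± 0.12 with a limma adjusted p of 0.841, and it was -0.15 without MSC KO 2.

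Of the death-domain receptors, Tnfrsf25 was the tested one that lay above WT in both tables. It encodes DR3, the receptor for TL1A known to expand regulatory T cells in mice (chromosome 4, 151490451 to 151494220). Tnfrsf25 was at 19.4 and 27.1 FPKM in the libraries labelled MSC KO, against 12.4 and 14.0 FPKM in those labelled WT. The groups did not overlap, though the spread among the libraries labelled MSC KO was wider. The ratios were 1.57 (1.41 to 1.75) and 1.93 (1.77 to 2.11), with a difference of 0.76 ± 0.12 and a limma adjusted p of 0.147. The difference was 0.99 without MSC KO 1 and 0.53 without MSC KO 2.

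Fas, which encodes the receptor of FAS ligand and drives activation-induced death, was at 21.3 and 21.7 FPKM in the libraries labelled MSC KO, against 23.8 and 25.1 FPKM in those labelled WT (chromosome 19, 34365148 to 34402260). It was lower in both tables, at ratios of 0.894 (0.817 to 0.978) and 0.862 (0.797 to 0.933), with a difference of -0.18 ± 0.09 and a limma adjusted p of 0.358. Tnfrsf1a, which encodes TNFR1 (chromosome 6, 125299740 to 125312501), was at 10.57 and 10.04 FPKM in the KO-labelled libraries, compared with 10.99 and 11.997 FPKM in the WT-labelled ones, a difference of -0.14 ± 0.10 with a limma adjusted p of 0.482. The counting interval of its first-table ratio, 0.859 to 1.08, included 1.

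Tnfrsf21 encodes DR6, known to restrain T cell responses in mice (chromosome 17, 43153503 to 43226137). Its mean was below the filter, and it was not tested with the rest. Tnfrsf21 was at 0.696 and 0.609 FPKM in the libraries labelled MSC KO, against 0.432 and 0.379 FPKM in those labelled WT, on 71 and 72 fragments in MSC KO and 40 and 48 in WT. The ratio was 1.61 in both tables, with intervals of 1.08 to 2.44 and 1.10 to 2.36. Fitted with no filter on low values, its difference was 0.23 ± 0.02 with a limma adjusted p of 0.419.

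**Figure D3:**
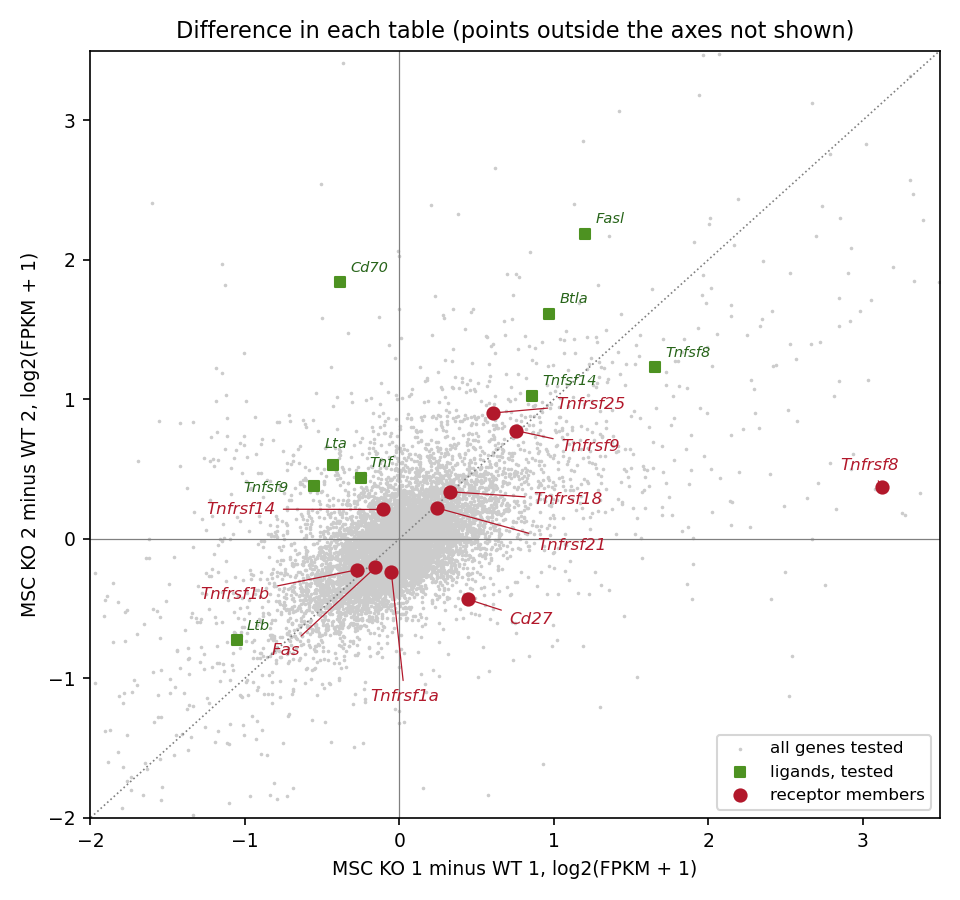
Difference on the log2(FPKM + 1) scale in the first table (MSC KO 1 minus WT 1, x axis) and the second (MSC KO 2 minus WT 2, y axis), with all genes tested in grey, receptors as red circles and ligands tested as green squares; the dotted line marks equal differences. Tnfrsf9, Tnfrsf25 and Tnfrsf18 lie near the line above 0 in both, Tnfrsf8 lies far to the right of it, and Cd27 lies on opposite sides of 0 in the 2 tables.

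The genes are not spread evenly over the genome: 6 of the 10 lie on chromosome 4, 2 on chromosome 6, and 1 each on chromosomes 17 and 19. Tnfrsf1b and Tnfrsf8 are 20.3 kb apart in mm9 by the loci of the first table and 22.1 kb by those of the second, where Tnfrsf8 is listed as shorter, with Tnfrsf1b lower and Tnfrsf8 higher in the libraries labelled MSC KO. Tnfrsf9 and Tnfrsf25, both higher in those libraries, lie 1170.2 kb apart. Tnfrsf4, the OX40 gene, lies 8.0 kb from Tnfrsf18, is not among the 10 and is joined with Sdf4 in the first table. It was at 476 FPKM in the library labelled MSC KO 2 and at 374 FPKM in that labelled WT 2, a ratio of 1.27, and the joined row of Tnfrsf4 and Sdf4 was at 635 FPKM in the library labelled MSC KO 1, compared with 468 FPKM in WT 1, a ratio of 1.36. On chromosome 6, Ltbr lies between Cd27 and Tnfrsf1a, at 66.6 and 35.9 kb from them, and its values, named for its position after they were seen, were 1.80 and 0.871 FPKM in the KO-labelled libraries, compared with 0.563 and 0.394 FPKM in the WT-labelled ones.

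Among 12 ligands and partners of the receptors, the 9 tested had a median difference of 0.73, beside -0.02 over all genes. None of the ligands was called by limma, 5 had an unadjusted p under 0.05, 4 were above both libraries labelled WT and 1 below. Over all genes tested, the shares for those last 3 counts were 20.4%, 26.6% and 32.5%. Tnfsf8, which encodes the CD30 ligand, was at 40.6 and 36.1 FPKM in the libraries labelled MSC KO, against 12.2 and 14.8 FPKM in those labelled WT. It was 3.33-fold higher (3.12 to 3.56) and 2.43-fold higher (2.31 to 2.57), with a difference of 1.44 ± 0.15 and a limma adjusted p of 0.121, and the authors' deposited table called it in the first table. Fasl, the FAS ligand gene, was at 16.4 and 33.1 FPKM in the KO-labelled libraries, compared with 6.55 and 6.48 FPKM in the WT-labelled ones, at ratios of 2.50 and 5.11, with a difference of 1.70 ± 0.28 (adjusted p = 0.153), and the authors' deposited table called it in the second table. These 2 were at least 2-fold higher in both tables on the log2(FPKM + 1) scale, and by the plain ratio of FPKM values Btla was as well, at 2.02 and 3.21.

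The 2 HVEM partners Tnfsf14, encoding LIGHT, and Btla were both higher in the libraries labelled MSC KO. Tnfsf14 was at 12.7 and 13.8 FPKM in the KO-labelled libraries, compared with 6.58 and 6.26 FPKM in the WT-labelled ones, a difference of 0.94 ± 0.10 (limma adjusted p = 0.121). Btla was at 28.2 and 44.8 FPKM in the KO-labelled libraries, compared with 13.9 and 14.0 FPKM in the WT-labelled ones, a difference of 1.29 ± 0.20 (limma adjusted p = 0.143), and the authors' deposited table called it in the second table. HVEM itself, as given above, did not separate. Ltb, encoding lymphotoxin beta, was the ligand below WT, at 163 and 198 FPKM in the libraries labelled MSC KO, against 339 and 328 FPKM in those labelled WT, a difference of -0.89 ± 0.12 (limma adjusted p = 0.140).

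The other 4 ligands tested overlapped, since MSC KO 1 lay below and MSC KO 2 above the libraries labelled WT in each. Lta, encoding lymphotoxin alpha, was at 338 and 682 FPKM in the KO-labelled libraries, compared with 456 and 472 FPKM in the WT-labelled ones, and Tnf at 23.5 and 40.1 FPKM in the KO-labelled libraries, compared with 28.1 and 29.3 FPKM in the WT-labelled ones. Tnfsf9, the 4-1BB ligand gene, was at 6.51 and 13.2 FPKM in the KO-labelled libraries, compared with 9.995 and 9.86 FPKM in the WT-labelled ones. Cd70, the CD27 ligand gene, was at 2.64 and 17.4 FPKM in the KO-labelled libraries, compared with 3.75 and 4.14 FPKM in the WT-labelled ones. For these, the difference between the libraries labelled MSC KO exceeded that between genotypes. The GITR ligand gene Tnfsf18 was listed at 0 in all 4 libraries, beside the abundant Tnfrsf18. Tnfsf15, encoding the DR3 ligand TL1A, was at 0.0923 and 0.890 FPKM in the KO-labelled libraries, compared with 0.0539 and 0.128 FPKM in the WT-labelled ones, and Cd160 at 1.67 and 0.934 FPKM in the KO-labelled libraries, compared with 0.457 and 0.741 FPKM in the WT-labelled ones.

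**Figure D4:**
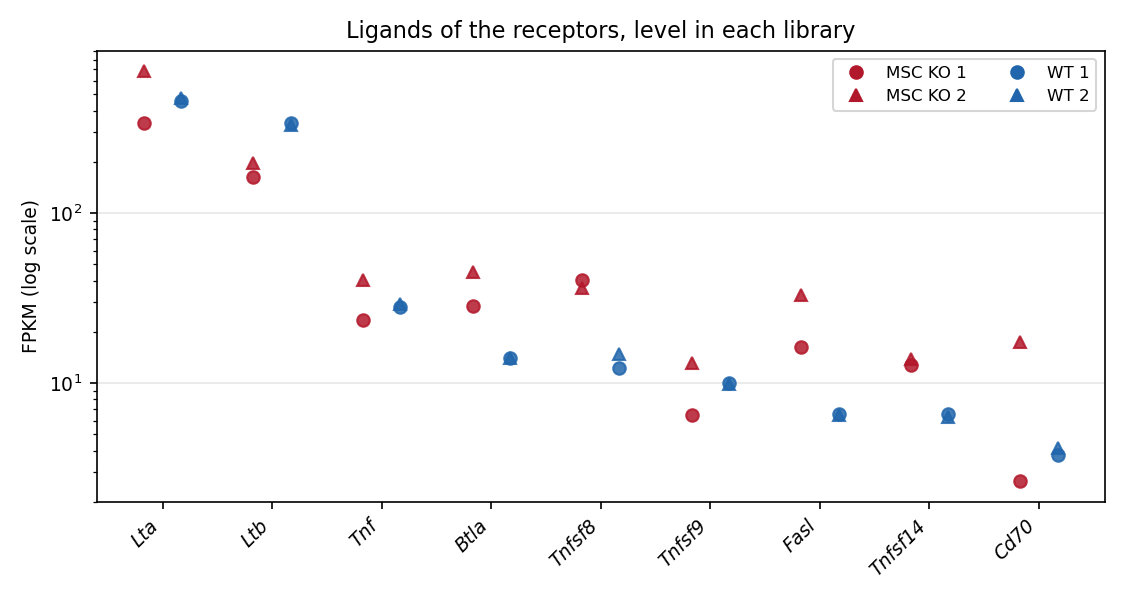
Level of the 9 ligands tested, in FPKM on a log axis, 1 point per library, with the libraries labelled MSC KO left of those labelled WT. Tnfsf8, Fasl, Btla and Tnfsf14 lie above WT in both, Ltb lies below in both, and for Lta, Tnf, Tnfsf9 and Cd70 the 2 libraries labelled MSC KO lie on either side of WT.

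Other receptors of the family were mostly low or mixed. Of 18 listed, 17 were in both tables and 9 were tested, with 0 called by limma and a median difference of -0.04. An unadjusted limma p under 0.05 was found in 2, against 20.4% of all genes. Of the 9, 2 were above both libraries labelled WT and 2 below, against 26.6% and 32.5% of all genes. Tnfrsf12a, encoding the TWEAK receptor, was at 6.39 and 8.22 FPKM in the KO-labelled libraries, compared with 5.003 and 5.07 FPKM in the WT-labelled ones, and Tnfrsf10b, encoding the TRAIL receptor, at 8.95 and 12.5 FPKM in the KO-labelled libraries, compared with 7.75 and 8.001 FPKM in the WT-labelled ones. Cd40, a costimulatory receptor of antigen-presenting cells, was lower at 3.18 and 7.69 FPKM in the libraries labelled MSC KO, against 10.9 and 10.8 FPKM in those labelled WT (difference -0.98 ± 0.31, limma adjusted p = 0.232). Tnfrsf13b, encoding TACI, was at 38.7 and 80.9 FPKM in the KO-labelled libraries, compared with 69.9 and 75.4 FPKM in the WT-labelled ones, and Tnfrsf13c, encoding the BAFF receptor, at 2.89 and 7.94 FPKM in the KO-labelled libraries, compared with 3.18 and 3.79 FPKM in the WT-labelled ones. The part of B cells in these 3 was not tested, and the B cell markers Cd79a, Ms4a1 and Pax5 were at no more than 0.705 FPKM in any library. Relt was at 8.97 and 13.5 FPKM in the KO-labelled libraries, compared with 11.8 and 10.9 FPKM in the WT-labelled ones, and Ngfr at 0.126 and 3.30 FPKM in the KO-labelled libraries, compared with 1.43 and 1.37 FPKM in the WT-labelled ones. Tnfrsf22, at 2.02 and 1.89 FPKM in the KO-labelled libraries, compared with 2.10 and 2.26 FPKM in the WT-labelled ones, and Tnfrsf26, at 4.01 and 2.55 FPKM in the KO-labelled libraries, compared with 2.82 and 3.06 FPKM in the WT-labelled ones, belong to a cluster of closely related genes, among which counting may split reads, and that sharing was not measured.

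Downstream of the receptors, the 30 adaptor and death signalling genes all passed the filter, and 0 were called by limma. Their median difference was -0.12. An unadjusted limma p under 0.05 was found in 8, against 20.4% of all genes. Of the 30, 6 were above both libraries labelled WT and 14 below, against 26.6% and 32.5% of all genes. Traf1, encoding an adaptor that binds TRAF2 and is itself induced by NF-kappaB, was at 86.5 and 78.5 FPKM in the libraries labelled MSC KO, against 41.8 and 42.3 FPKM in those labelled WT, at ratios of 2.07 (1.99 to 2.15) and 1.86 (1.79 to 1.92), with a difference of 0.95 ± 0.10 and a limma adjusted p of 0.121. Birc2, encoding the ubiquitin ligase cIAP1 that TRAF2 recruits, was at 20.3 and 21.5 FPKM in the KO-labelled libraries, compared with 15.4 and 15.5 FPKM in the WT-labelled ones (difference 0.41 ± 0.09, adjusted p = 0.176). On the other side, the adaptor gene Traf5 was at 6.76 and 7.23 FPKM in the libraries labelled MSC KO, against 11.1 and 11.8 FPKM in those labelled WT (difference -0.64 ± 0.09, adjusted p = 0.140). Traf6 was at 23.6 and 24.3 FPKM in the KO-labelled libraries, compared with 30.9 and 32.0 FPKM in the WT-labelled ones. Cradd, a death-domain adaptor gene, was at 6.08 and 6.78 FPKM in the KO-labelled libraries, compared with 12.6 and 11.9 FPKM in the WT-labelled ones (difference -0.83 ± 0.11, adjusted p = 0.130).

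**Figure D5:**
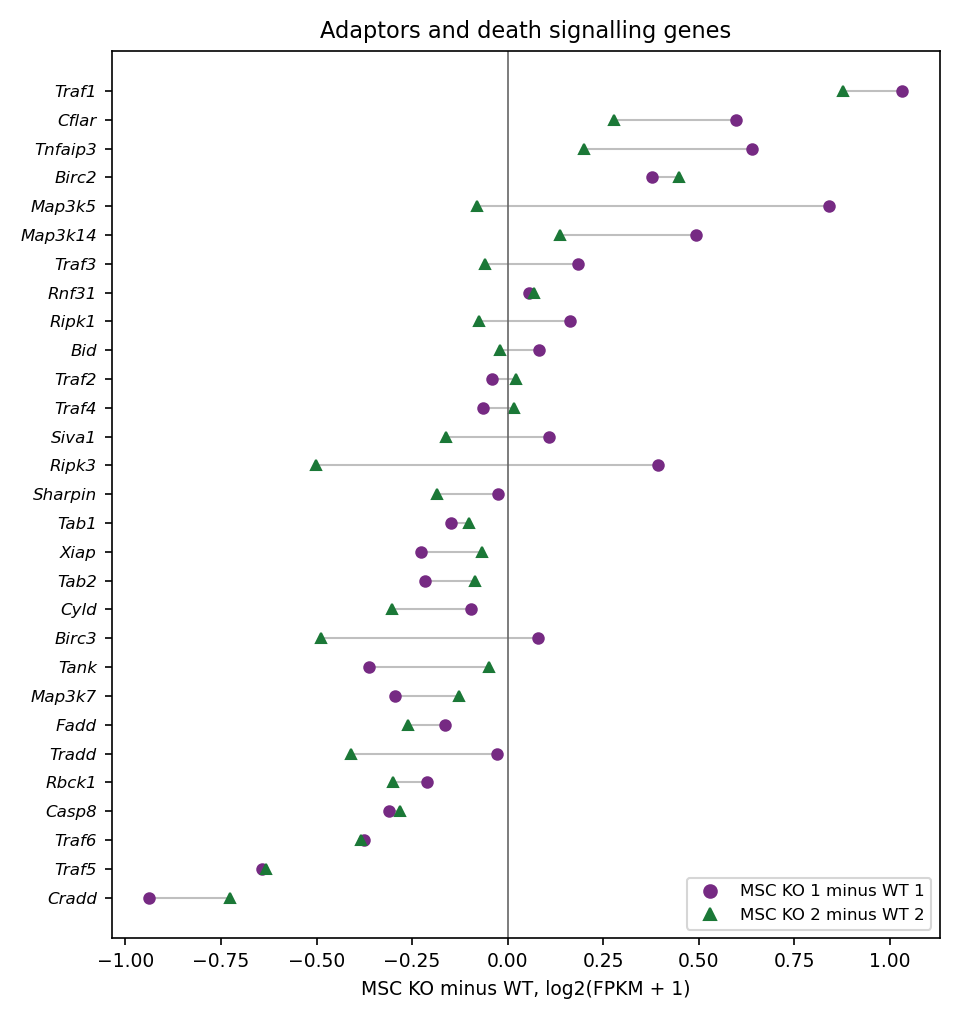
Difference of 29 of the 30 adaptor and death signalling genes on the log2(FPKM + 1) scale, with the first table as circles and the second as triangles, joined by a line. Traf1 has the largest positive value in both tables and Cradd the most negative, and 13 of the 29 genes drawn lie below both libraries labelled WT.

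Of the 23 NF-kappaB components and targets, 22 were tested and 0 were called by limma, at a median difference of 0.19. Of those tested, 11 were above both libraries labelled WT and 0 below, against 26.6% and 32.5% of all genes. An unadjusted limma p under 0.05 was found in 4, against 20.4% of all genes. Bcl2l1, encoding the survival protein BCL-XL, was at 123 and 163 FPKM in the libraries labelled MSC KO, against 79.5 and 79.9 FPKM in those labelled WT (difference 0.82 ± 0.14, adjusted p = 0.153). Nfkbib, encoding the inhibitor IkappaB beta, was at 49.2 and 67.7 FPKM in the KO-labelled libraries, compared with 31.9 and 34.1 FPKM in the WT-labelled ones (difference 0.79 ± 0.13, adjusted p = 0.153). Cd83, an activation marker gene, was at 45.3 and 86.1 FPKM in the KO-labelled libraries, compared with 32.4 and 35.3 FPKM in the WT-labelled ones (difference 0.87 ± 0.24, adjusted p = 0.209). Bcl3, encoding a nuclear IkappaB protein, was at 83.6 and 54.6 FPKM in the KO-labelled libraries, compared with 46.2 and 45.7 FPKM in the WT-labelled ones, and Nfkbid, encoding another, at 29.6 and 27.8 FPKM in the KO-labelled libraries, compared with 22.1 and 23.2 FPKM in the WT-labelled ones. Nfkb1, which encodes the p105 precursor of p50, was at 138 and 158 FPKM in the KO-labelled libraries, compared with 123 and 124 FPKM in the WT-labelled ones. None of these 6 differences passed the adjusted threshold.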

How the data were processed

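The 4 libraries came as 2 tables deposited by the authors, MSC KO 1 with WT 1 and MSC KO 2 with WT 2. The submitters' processing notes name TopHat and mm9; versions, annotation and strand use remain not given in the sources used here. Values deposited by the authors were taken to be FPKM, judged by their range and the table layout, as no header states a unit. Each gene also has the authors' own p-value and q-value. The receptors and lists were chosen with earlier results of these data known.

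MSC KO was compared with WT on log2(FPKM + 1), in genes with a mean of at least 1 FPKM, using limma 3.58.1 (R 4.3.3), two-sided, with a trended prior variance and Benjamini-Hochberg adjustment over all genes at 0.05. The table was a block, since its 2 libraries may share a scaling. Degrees of freedom were 2.35 for the prior and 1 for the residual. The fit was also run on simulated data, and its outcome there is not reported here. Since nothing says that the libraries came from separate animals, p-values measure only the spread between these libraries. Fragment numbers were estimated from the smallest step of low values, with GENCODE M21 transcript lengths matched by name, and intervals cover counting error only. Tables were read with pandas 2.3.3 in Python 3.11.15, and rows with no symbol (1925 and 2325) were left out. The text names all 10 receptors, every other receptor of the family and every ligand with a mean of at least 1 FPKM, Msc and Foxp3 as checks, and, from each signalling list, up to 6 genes whose smaller difference of the 2 tables was largest. Alternatives changed the block, pseudocount, filter, prior, scaling and small RNA genes, or left out each library. Some genes of these lists were counted in the summaries and are not reported here by name.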

Additional observations from a re-analysis of the deposited data

How the results depend on the processing

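Against 1 gene called of 10587, 153 were called with no replicate block, 21 with median rescaling, 26 without small RNA symbols, and 0 with no filter, with no trended prior or with quantile normalization. Fits that left out a library also dropped the block, since a table then has no pair, so they stand beside the fit with no replicate block (153 genes, 1 member). Their count ran from 0 to 2665, the highest without a library labelled MSC KO, when the spread came from the WT pair. Members called, 0, became 1 (Tnfrsf9, adjusted p 0.0335) with no replicate block and ran from 0 to 4 with no block and a library left out: Tnfrsf18, Tnfrsf9, Tnfrsf25 and Cd27 without MSC KO 1, and Tnfrsf18, Tnfrsf9, Tnfrsf8 and Cd27 without MSC KO 2. With no replicate block, Tnfsf8 (0.0416), Tnfsf14 (0.0418), Traf1 (0.0374) and Foxp3 (0.0471) also passed. Same-numbered libraries deviated together with r = 0.0589 over 10587 genes, so little gene-by-gene deviation was shared within a table. The block of the main fit stood for the shared table, and the numbers were not taken to pair the animals. The median difference of the tested members, 0.052, was 0.143 with no filter and 0.009 to 0.323 with a library left out. Directions turned for Tnfrsf14, -0.149 without MSC KO 2 beside 0.254 without MSC KO 1, and for Cd27, -0.004 with quantile normalization and -0.436 without MSC KO 1, beside 0.446 without MSC KO 2. Of 100 member values under alternatives, 89 kept direction and side of the threshold, 8 passed it in the same direction and 3 turned. The 2-fold counts could not be recomputed with a library left out, since a table then loses its pair. Depth limits Tnfrsf21 and Tnfrsf8 most, with 40 to 81 fragments outside MSC KO 1.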
